A study of Mus musculus with 6 samples.

Results

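A set of 10 genes of stratified squamous epithelium, the layered lining found at the anus and in skin, was followed in mouse colon: Dmkn, Sbsn, Krt4, Krt5, Krt6a, Krt13, Krt14, Krt15, Sprr1a and Trp63. They were taken as a named list and make up 10 of the 18193 genes with a probe set of their own on the array. All 10 were measured, by 22 probe sets that carry 1 gene symbol, from 1 to 4 per gene, and a further probe set was annotated to both Krt17 and Krt14. The question was whether tissue near the rectum differed between the colon pieces of 3 groups of mice, wild type (WT) and knockouts of 2 receptors, GPR41 KO and GPR43 KO. All mice were C57BL/6, 6 to 8 weeks old, and all were given ethanol by rectal injection, with colon taken 24 h later. Each group has 2 arrays, and colon without ethanol was not analysed here. Both targeted genes, Ffar3 for GPR41 and Ffar2 for GPR43, encode receptors for short-chain fatty acids. The labels do not say how far from the anus the pieces were cut, nor whether a group's arrays hold separate animals, so p-values measure only the spread between these arrays.

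Stratified squamous epithelium is renewed from a basal layer that expresses the transcription factor p63 (gene Trp63) and the keratin pair Krt5 and Krt14, with Krt15 in many basal cells. Cells that leave the basal layer of moist mucosa switch to Krt4 and Krt13, and injured or rapidly dividing epithelium adds Krt6a. Sprr1a is cross-linked by transglutaminases into the cornified envelope, a protein shell under the membrane of the outermost cells, and Dmkn and Sbsn are secreted by differentiating keratinocytes. The columnar lining of the colon instead uses simple keratins such as Krt8 and Krt19, and in the mouse it meets squamous epithelium at the anorectal junction.

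Of the 10 genes, 6 had an entry in the RefSeq promoter table (GRCm38.p6). The 250 bases upstream of a start site are shown for the 4 of them whose promoters held the AP-1 recognition motif TGANTCA, to set the promoters of Dmkn and Sbsn, described below, beside those of the other members that hold it. Capitals mark each match to TGANTCA, which reads the same on both strands. Sequences run 5′ to 3′ along the gene.
Dmkn (chr7:30763506-30763755, + strand): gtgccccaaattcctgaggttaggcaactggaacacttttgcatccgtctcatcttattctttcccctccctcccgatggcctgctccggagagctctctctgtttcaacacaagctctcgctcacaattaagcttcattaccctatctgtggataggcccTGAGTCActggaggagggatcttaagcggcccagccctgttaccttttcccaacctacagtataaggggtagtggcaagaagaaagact
Sbsn (chr7:30751221-30751470, + strand): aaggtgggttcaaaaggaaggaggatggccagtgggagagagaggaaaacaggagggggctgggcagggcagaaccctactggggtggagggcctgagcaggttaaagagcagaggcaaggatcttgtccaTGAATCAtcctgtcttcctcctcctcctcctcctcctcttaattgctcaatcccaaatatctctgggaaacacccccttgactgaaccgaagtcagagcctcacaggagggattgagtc
Sprr1a (chr3:92485882-92486131, - strand): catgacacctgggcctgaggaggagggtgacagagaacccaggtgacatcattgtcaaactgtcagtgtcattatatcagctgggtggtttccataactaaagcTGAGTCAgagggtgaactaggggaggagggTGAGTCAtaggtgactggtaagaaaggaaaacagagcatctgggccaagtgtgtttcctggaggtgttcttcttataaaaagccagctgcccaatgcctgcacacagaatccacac
Krt13 (chr11:100121567-100121816, - strand): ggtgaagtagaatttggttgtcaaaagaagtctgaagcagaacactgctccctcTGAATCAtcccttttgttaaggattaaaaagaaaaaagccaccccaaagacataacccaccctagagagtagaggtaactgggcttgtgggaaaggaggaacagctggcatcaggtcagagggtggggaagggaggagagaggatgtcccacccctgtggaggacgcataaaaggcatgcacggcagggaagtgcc

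The motif began at position -89 in this Dmkn promoter, -119 in Sbsn, -146 and -116 in Sprr1a and -196 in Krt13, counted from the start site. The other start sites listed for Dmkn and Krt13 also held it, and those of Krt14 and Krt5 did not. Promoters of 2 further genes that fell more than Dmkn, described below, were looked up: that of Sprr2h held the motif and that of Asprv1 did not. The promoter of Tgm1, whose fall is also described below, was not looked up. Of 32851 promoter windows of this length, 6.75% held the motif. Counted in the same way, 7 of the 9 windows of the members held it. Some windows of Dmkn overlap, so these are not independent, and no test was made. A match describes these letters and shows no binding.

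One library and the level of weak signals bear on every result. The library labelled GPR43 KO replicate 1 had a Ffar2 signal of 1598, against 1194 and 1118 for WT, 1857 and 1933 for GPR41 KO and 189.0 for GPR43 KO replicate 2. A second Ffar2 probe set gave the same order. This library went against its label, and the members' results on GPR43 KO, their counts and those of the lists that changed are given with and without it. No probe set carried the symbol Ffar3, and the label GPR41 KO could not be tested this way. With no detection calls used here, the 95th percentile of 44 olfactory receptor probe sets, genes of the sensory neurons of the nose, served as a floor for weak signals. It lay at 71.3 and 65.4 in the WT arrays and between 83.3 and 87.5 in the knockout arrays, a choice made after the values were seen. In colon pieces, fewer cells of a type and less RNA per cell cannot be told apart.

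Of the defining genes of the basal layer, 3 were under this floor in every array and Krt14 was above it in some. Krt5, with signals of 39.9 and 53.9 in WT, 62.6 and 38.7 in GPR41 KO and 58.7 and 17.9 in GPR43 KO, was above the floor in 0 of the 6 arrays. Krt15 ranged from 2.27 to 10.9, and the leading probe set of Trp63, the one with the highest mean signal, ranged from 8.75 to 38.7. The other 3 probe sets of Trp63 reached at most 54.5. The basal markers Krt5, Krt15 and Trp63 thus stayed under the floor in all 6 arrays. Krt14, the partner of Krt5, read 53.4 and 51.2 in the WT arrays, 97.1 and 111.7 in those of GPR41 KO and 110.8 and 85.8 in those of GPR43 KO. Both arrays of each knockout group were thus higher than both WT arrays, but 3 of these 4 signals were above the floor and both WT signals were below it. Its log2 fold change was 0.80 ± 0.38 (SE, n = 2 per group, adjusted p = 0.503, limma) in GPR41 KO and 0.72 ± 0.38 (adjusted p = 0.538) in GPR43 KO. The other 2 Krt14 probe sets repeated the separation in part: one for GPR43 KO but not GPR41 KO, the other for neither. The first read 33.9 and 38.7 for WT against 144.3 and 31.1 for GPR41 KO and 102.3 and 67.2 for GPR43 KO, and the second stayed between 6.59 and 52.7. The probe set shared with Krt17, left out of all counts, ranged from 26.2 to 101.4. With replicate 1 left out, the log2 fold change in GPR43 KO was 0.56 for Krt14 (adjusted p = 0.78), -0.85 for Krt5, 0.42 for Krt15 and 0.44 for Trp63 (0.70 to 0.86). The label of squamous epithelium was thus not borne out by Krt5, Krt15 and Trp63 in any array. The leading probe set of Krt14 was above the floor in 3 of the 4 knockout arrays, and the genes are described below one by one.

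**Figure D1:**
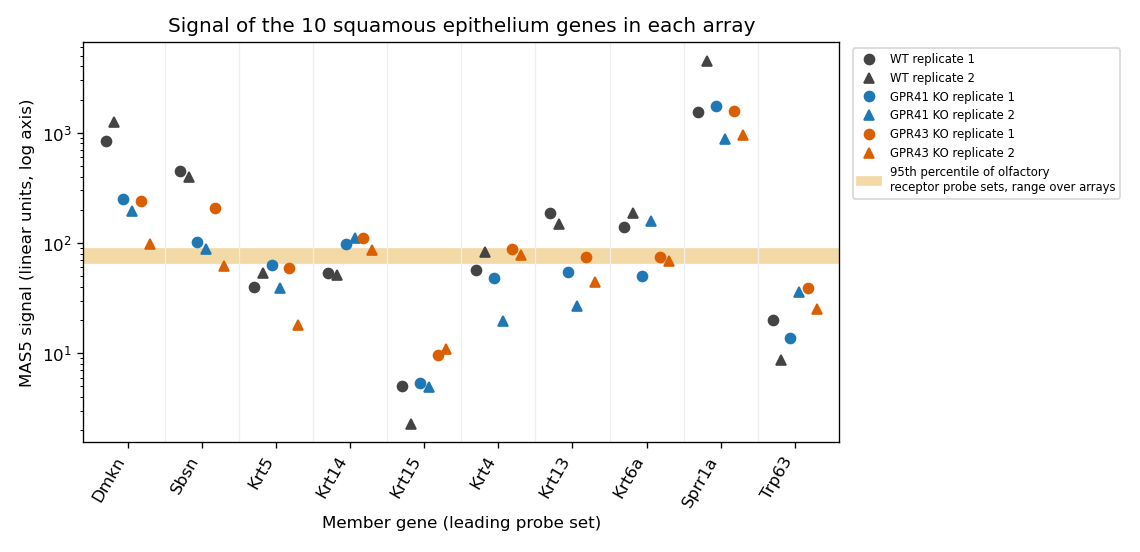
MAS5 signal (log axis) of the leading probe set of each of the 10 genes, 1 point per array, with circles for replicate 1 and triangles for replicate 2, WT in grey, GPR41 KO in blue and GPR43 KO in orange. The shaded band runs from 65.4 to 87.5, the range of the floor over the arrays; Krt5, Krt15 and Trp63 lie under the floor of every array, and both WT arrays of Dmkn, Sbsn and Krt13 lie above the 4 knockout arrays.

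Dmkn, which encodes the secreted keratinocyte protein dermokine, was the 1 member that passed the test. Its signal was 840.4 and 1248 for WT, 251.0 and 196.8 for GPR41 KO, and 242.3 and 96.9 for GPR43 KO, where 242.3 belongs to the library whose Ffar2 went against its label. The 4 knockout arrays were all lower than both WT arrays. Dmkn fell by 2.12 ± 0.37 on the log2 scale in GPR41 KO (SE, n = 2 per group, adjusted p = 0.0363, limma) and by 2.59 ± 0.37 in GPR43 KO (adjusted p = 0.0187). With that library left out, the log2 fold change for GPR43 KO was -3.18 (adjusted p = 0.0196). In GPR41 KO, 1 of the 22 member probe sets passed as lower and 0 as higher, where 1.06% of all 45037 probe sets passed, 0.748% lower and 0.309% higher. In GPR43 KO the members' counts were again 1 and 0, where 0.762% of all passed, 0.553% lower and 0.209% higher. The call in GPR41 KO was lost without WT replicate 1 (adjusted p = 0.0563), WT replicate 2 (0.282), GPR41 KO replicate 1 (0.248) or GPR41 KO replicate 2 (0.315), with log2 fold changes from -2.40 to -1.84. The call in GPR43 KO was lost without WT replicate 2 (0.152) or GPR43 KO replicate 2 (0.118).

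Sbsn encodes suprabasin, another secreted protein of differentiating keratinocytes, and lies next to Dmkn on chromosome 7. Its leading probe set read 446.9 and 395.0 for WT, 102.8 and 87.8 for GPR41 KO, and 208.1 and 61.6 for GPR43 KO. Both WT arrays were again above the 4 knockout arrays, and the 2 GPR43 KO arrays differed 3.38-fold from each other, where the WT arrays differed 1.13-fold. The log2 fold change was -1.95 ± 0.45 (adjusted p = 0.108, limma) in GPR41 KO and -1.71 ± 0.45 (adjusted p = 0.177) in GPR43 KO, so neither passed. In GPR43 KO it was -2.46 (adjusted p = 0.0665) with replicate 1, whose Ffar2 went against its label, left out, and -0.95 (0.461) with replicate 2 left out. The second probe set showed the same order of groups, with 380.6 and 294.8 for WT, 98.3 and 86.3 for GPR41 KO and 191.0 and 87.2 for GPR43 KO. The third was weak, at 45.8 and 53.8 in WT and between 3.37 and 17.4 in the knockout arrays. The leading probe set is of a design class that can cross-hybridise with other transcripts, as are those of Krt14 and Krt4, while the second is not. With 1 leading probe set per gene and weak genes left out, Sbsn passed in GPR41 KO (adjusted p = 0.0405), as it did with WT and GPR41 KO fitted alone (0.0267).

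Dmkn and Sbsn both lie beside the targeted receptor genes. On chromosome 7 the order of protein-coding genes is Sbsn, Dmkn, Krtdap, Ffar2 and Ffar3, so that Dmkn is the second gene from Ffar2. Krtdap, a further keratinocyte gene between them, gave 6.85 and 31.3 in WT and at most 26.3 in the knockout arrays, under the floor throughout. Of 61 other genes with a probe set within 1 Mb of Ffar2, 2 were lower in GPR41 KO, 0 were higher and 59 did not pass, and the counts in GPR43 KO were the same, but 0 of 61 passed there without replicate 1. The 2 were Tyrobp, a signalling adaptor of myeloid cells (log2 -2.26 and -1.86), and Fxyd5, a regulator of the sodium pump (-1.83 and -1.45). The median log2 fold change of these 61 genes was -0.13 in GPR41 KO and -0.044 in GPR43 KO, against -0.021 and 0.017 over all probe sets. For Dmkn and Sbsn, the targeted region and the makeup of the piece cannot be told apart.

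**Figure D2:**
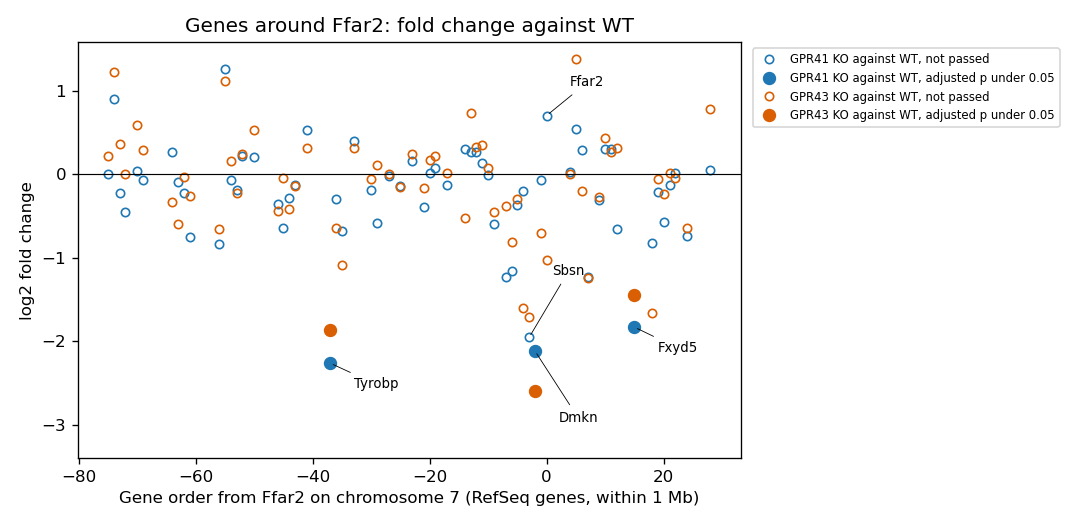
Log2 fold change against WT of each gene with a probe set within 1 Mb of Ffar2, by gene order on chromosome 7, for GPR41 KO (blue) and GPR43 KO (orange); filled points passed the threshold. Dmkn, Tyrobp and Fxyd5 are filled in both comparisons, and Sbsn lies at -1.95 and -1.71 without passing.

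The suprabasal keratins of moist mucosa were weak. Krt13 read 186.4 and 149.5 for WT, above the floor, and 54.6 and 26.7 for GPR41 KO and 74.1 and 44.3 for GPR43 KO, all 4 below it. Set against the floor, the WT mean was at least 1.96-fold higher than GPR41 KO and at least 1.94-fold higher than GPR43 KO. These bounds describe the arrays at hand and leave out their spread. The log2 fold change was -1.70 ± 0.44 (95% interval -2.69 to -0.71, adjusted p = 0.156, limma) and -1.29 ± 0.44 (-2.28 to -0.30, adjusted p = 0.307), and neither passed. The arrays of each knockout group lay below both WT arrays, and without GPR43 KO replicate 1 the value was -1.57 (0.447). The other 2 Krt13 probe sets stayed under the floor in every array. Krt4 is the usual partner of Krt13. Its leading probe set read 56.7 and 82.6 for WT, 48.0 and 19.4 for GPR41 KO and 87.9 and 78.5 for GPR43 KO. GPR41 KO was lower than WT in both arrays, and GPR43 KO overlapped WT. Its log2 fold change was -0.80 ± 0.46 (adjusted p = 0.607) in GPR41 KO and 0.22 ± 0.46 (adjusted p = 0.914) in GPR43 KO, or 0.15 without its replicate 1 (0.965). GPR43 KO minus GPR41 KO was 1.02 ± 0.46 (95% interval -0.012 to 2.06, adjusted p = 0.923). The other Krt4 probe set stayed between 6.13 and 32.8.

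Krt6a, the keratin of injured and hyperproliferative epithelium, read 139.0 and 188.0 for WT, 50.2 and 158.3 for GPR41 KO and 74.3 and 68.5 for GPR43 KO. GPR41 KO replicate 2 reached into the WT range while GPR41 KO replicate 1 was under the floor, a 3.16-fold difference within the group. The log2 fold change was -0.71 ± 0.48 (adjusted p = 0.68, limma) in GPR41 KO and -1.01 ± 0.48 (adjusted p = 0.483) in GPR43 KO, or -1.06 without its replicate 1 (0.666). A second Krt6a probe set was highest in WT replicate 2, at 157.4, with 52.2 in WT replicate 1 and between 42.3 and 90.7 in the knockout arrays. The third stayed between 1.77 and 37.5.

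Sprr1a, the cornified envelope precursor, was well above the floor in every array and differed as much within groups as between them. It read 1531 and 4519 for WT, 1734 and 869.2 for GPR41 KO and 1584 and 948.4 for GPR43 KO. WT replicate 2 stood alone at the top, 2.95-fold above WT replicate 1, which lay within the knockout range. The log2 fold change was -1.09 ± 0.48 in both comparisons (adjusted p = 0.464 in GPR41 KO and 0.449 in GPR43 KO, limma). The 95% intervals ran from -2.19 to 0.010 and from -2.19 to 0.0074. Without GPR43 KO replicate 1 the value there was -1.46 (0.539).

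**Figure D3:**
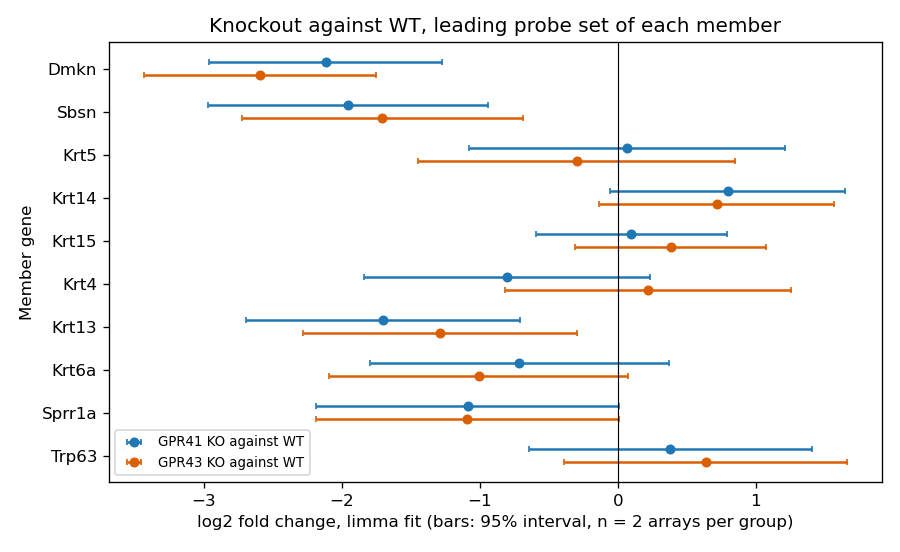
Log2 fold change against WT of the leading probe set of each member with its 95% interval, GPR41 KO in blue and GPR43 KO in orange, from the limma fit with 2 arrays per group. Dmkn passed after adjustment over all probe sets; the intervals of Sbsn and Krt13 also lie below 0, but they are not adjusted and these genes did not pass.

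Over the 10 leading probe sets, the median log2 fold change was -0.76 in GPR41 KO and -0.65 in GPR43 KO, against -0.021 and 0.017 over all probe sets. Over the 22 probe sets it was -0.39 and 0.0042. In GPR41 KO the groups did not overlap in 9 of the 22 probe sets, 8 of them lower, where 40.8% of all probe sets did not overlap, 22% lower and 18.8% higher. In GPR43 KO this held for 11 of 22, 6 of them lower and 5 higher, where it held for 40.4% of all, 19.2% lower and 21.3% higher. Both shares of the 22, counted in either direction, lie near the background. By direction, the 8 lower in GPR41 KO exceed the background share and the 1 higher is below it. Of the 22, 12 were above the floor in no array. Of the 10 leading probe sets, 5 did not overlap in GPR41 KO (4 lower, 1 higher) and 7 in GPR43 KO (4 lower, 3 higher). Between GPR43 KO and GPR41 KO the groups did not overlap in 7 of 22 (1 lower, 6 higher), against 35.4% of all probe sets, 14.6% lower and 20.8% higher. In that comparison none of the 22 passed in limma (0 at an unadjusted p under 0.05), and 0% of all probe sets passed, 5.4% of them having an unadjusted p under 0.05. Against WT, 5 of the 22 had an unadjusted p under 0.05 (limma) in GPR41 KO and 6 in GPR43 KO. Over all probe sets this held for 10.9% and 11.2%. Each Sbsn probe set counted in both, and 1 Trp63 probe set in GPR43 KO counted as higher. Both comparisons against WT use the same WT arrays. Without GPR43 KO replicate 1, the median against WT was -0.95 over the 10 and -0.017 over the 22. The remaining array lay outside the WT range in 15 of 22 (68.2%), against 70.4% of all probe sets. Of the 10 leading probe sets, it lay outside in 9 (6 lower, 3 higher).

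The arrays did not order the members in 1 way. The genes highest in a knockout array were weak, as were some of those highest in WT. Each array held the highest signal of at least 1 of the 10 genes: 3 in WT replicate 2, 2 each in WT replicate 1 and GPR43 KO replicate 1, and 1 each in the other arrays. Dmkn, Sbsn, Krt13, Krt6a and Sprr1a were highest in a WT array. Of these, Krt13 and Krt6a reached at most 186.4 and 188.0 and were above the floor in 2 and 3 arrays. Those highest in a knockout array were Krt5, Krt15 and Trp63, under the floor throughout, and Krt4 and Krt14, which reached at most 87.9 and 111.7. The number of genes above the floor was 5 and 6 in WT, 4 and 5 in GPR41 KO, and 5 and 2 in GPR43 KO. The floor was lower in WT (71.3 and 65.4) than in the knockout arrays (83.3 to 87.5), so signals in between counted in WT only. In GPR43 KO replicate 2, Krt14 (85.8) and Krt4 (78.5) were not counted but exceeded both WT floors. In all, 2 of the 10 (Dmkn and Sprr1a) were above the floor in every array, 3 in no array and 5 in some.

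Wider lists of squamous genes were also read against the floor. Of 15 other keratins of stratified epithelium, 6 (Krt1, Krt2, Krt6b, Krt16, Krt24 and Krt76) were above the floor in no array and 4 in every array, and 0 passed in either comparison with WT. Among the 4, Krt36 read 304.7 and 418.6 for WT and between 135.7 and 177.8 in the knockout arrays (adjusted p = 0.16 in GPR41 KO, limma). Of 18 desmosome and adhesion genes, 12 were above the floor in every array, among them Perp and Dsp, which columnar epithelium also expresses. The desmosomal cadherins Dsg1a, Dsg1b, Dsc1 and Dsc3, found in layered epithelium, and Col17a1, which anchors basal cells, were above it in no array. None of the 18 passed, nor did any of 22 squamous transcription factors and p63 targets, in which Ly6d gave 629.7 and 1223 in WT and between 284.7 and 470.0 in the knockout arrays (adjusted p = 0.163 in GPR41 KO).

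Among cornified envelope and keratinisation genes, a list that also holds Dmkn, Sbsn and Sprr1a, a few genes changed and many were at or under the floor. Of 35 with a probe set, 4 passed as lower, 1 as higher and 30 did not pass, the same counts in each knockout against WT. Of all probe sets, 0.748% passed as lower and 0.309% as higher in GPR41 KO, and 0.553% and 0.209% in GPR43 KO. The 4 include the member Dmkn. The median log2 fold change of the 35 was -0.20 in both comparisons. Of the 35, 18 were above the floor in no array, among them involucrin (Ivl) and filaggrin (Flg). Sprr2h, a small proline-rich envelope protein like Sprr1a, read 1010 and 1985 for WT, 3.73 and 8.26 for GPR41 KO and 35.8 and 17.8 for GPR43 KO. Both WT arrays stood far above the 4 knockout arrays, which were under the floor, so that WT was at least 16.6-fold and at least 16.5-fold higher (adjusted p = 0.000993 and 0.00244, limma). Members of the Sprr2 family are alike in sequence, and how far this probe set separates them was not tested. Asprv1, a skin aspartic protease that processes filaggrin, read 635.5 and 1153 for WT, 72.0 and 83.3 for GPR41 KO and 97.4 and 60.1 for GPR43 KO (adjusted p = 0.00431 and 0.00528). Both GPR41 KO arrays were under the floor, so that WT was at least 10-fold higher there, and the log2 fold change in GPR43 KO, with 1 of 2 arrays under it, was -3.20 ± 0.35. Tgm1, a transglutaminase that cross-links the envelope, gave 229.8 and 298.4 in WT and between 19.0 and 48.4 in the knockout arrays, all under the floor, so that WT was at least 3.07-fold and at least 3.05-fold higher (adjusted p = 0.0497 and 0.0496). The call of Tgm1 was lost in both comparisons with a pseudocount of 1 (0.0732 and 0.0674), quantile normalization (0.0744 and 0.0642), 2 groups fitted alone (0.0646 and 0.0814) or the replicate block (0.0811 and 0.0805), and in GPR41 KO with median centring (0.0511).

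Tgm3, a related transglutaminase, moved the other way. Its signal was 1448 and 594.3 for WT, 5096 and 5933 for GPR41 KO and 3575 and 7934 for GPR43 KO, with each knockout array above both WT arrays. It rose by 2.54 ± 0.42 on the log2 scale in GPR41 KO (adjusted p = 0.0285, limma) and also rose in GPR43 KO (SE 0.42, adjusted p = 0.0396). In GPR41 KO the 4 falls became 2 without WT replicate 1, and 1 (Sprr2h) with any other array of the comparison left out. In GPR43 KO they became 3 without WT replicate 1 or GPR43 KO replicate 1, and 1 (Sprr2h) without WT replicate 2 or GPR43 KO replicate 2. The rise of Tgm3 was lost with any array other than WT replicate 1 left out, with adjusted p from 0.131 to 0.298 in GPR41 KO and from 0.0746 to 0.333 in GPR43 KO. In GPR43 KO it was also lost with the pseudocount raised 4 times (0.0566), 2 groups fitted alone (0.13) or the replicate block (0.0527).

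**Figure D4:**
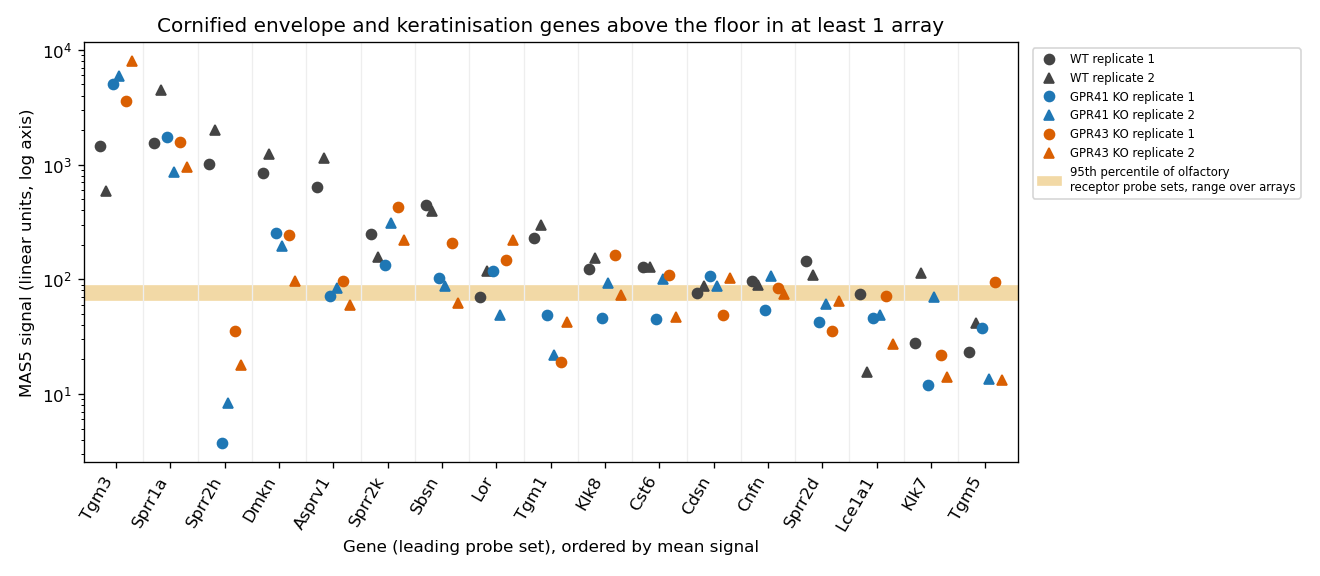
MAS5 signal (log axis) in each array of the 17 cornified envelope and keratinisation genes above the floor in at least 1 array, ordered by mean signal; colours and symbols are 1 per array, and the shaded band is the range of the floor. Sprr2h, Asprv1, Dmkn and Tgm1 are higher in both WT arrays than in the 4 knockout arrays, and Tgm3 is lower.

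Other tissues of the anal region were looked for in the same arrays. Of 22 skeletal muscle genes, which the external anal sphincter would contribute, 4 were above the floor in every array and 7 in none, the latter including the fast myosins Myh1, Myh2 and Myh4. Ckm, creatine kinase of muscle, gave 386.1 and 543.9 in WT and between 594.0 and 813.8 in the knockout arrays, and 0 of the 22 passed in either comparison with WT. The summed signal of the 22 was 3581 and 2851 for WT, 4797 and 5256 for GPR41 KO and 4570 and 4951 for GPR43 KO. Their median log2 fold change was -0.15 in GPR41 KO and 0.010 in GPR43 KO, against -0.021 and 0.017 over all probe sets. Of 15 skin gland, sebaceous and hair genes, 9 were above the floor in no array, 1 in every array and 0 passed. Their summed signal ranged from 768.1 to 952.6 in WT, from 1007 to 1166 in GPR41 KO and from 798.5 to 1012 in GPR43 KO.

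Genes that mark position along the gut were read in the same way. Hoxb13, a transcription factor of the most posterior body, read 4347 and 3089 for WT, 4853 and 4987 for GPR41 KO and 4127 and 6000 for GPR43 KO. Hoxd13 and Hoxa13 were also above the floor in all 6 arrays, at 456.4 to 892.9 and 317.3 to 607.3. Of 14 distal genes, 1 rose (Gsdmc2, a gasdermin of colon epithelium, by 1.36 and 1.51 on the log2 scale) and 13 did not pass. Its call was lost in both comparisons with any array other than WT replicate 1 left out (adjusted p from 0.0556 to 0.369), in GPR41 KO with the raised pseudocount (0.0539) and in GPR43 KO with 2 groups fitted alone (0.0998). The median log2 fold change of the distal genes was 0.27 in both comparisons, against -0.021 and 0.017 over all probe sets. It was 0.50 in GPR41 KO and 0.41 in GPR43 KO for the proximal list. The columnar list gave 0.30 and 0.36, and the smooth muscle list 0.27 and 0.49. The distal sum of signals was 9485 and 8322 in WT and 12922 to 13993 in the knockout arrays. The columnar sum was 298434 and 317196 against 374922 to 451008. The proximal sum was 89981 and 98271 in WT, 163653 and 98967 in GPR41 KO and 204519 and 114993 in GPR43 KO. It thus differed between the arrays of each knockout group, with replicate 1 the higher. Of the columnar lining, Krt8 lay between 33319 and 51310, and all 5 simple keratins and all 17 columnar genes were above the floor in every array. Of the 17, 1 (the water channel Aqp8, log2 2.03, adjusted p = 0.0383) rose in GPR41 KO and 0 passed in GPR43 KO. Without GPR41 KO replicate 1 or 2 Aqp8 did not pass (0.358 and 0.283), nor with the raised pseudocount (0.053) or 2 groups fitted alone (0.101). Over all probe sets, 0.309% passed as higher in GPR41 KO and 0.209% in GPR43 KO. Of 15 proximal colon genes, 1 rose in each comparison (Slc37a2, by 2.76 and 2.58 on the log2 scale), as did 1 of 11 smooth muscle genes (Actg2, by 0.83 and 0.88). Both were lost in GPR41 KO with any array other than WT replicate 1 left out (adjusted p from 0.0887 to 0.356). In GPR43 KO, Actg2 was likewise lost (0.154 to 0.301), and Slc37a2 without WT replicate 2 (0.139) or GPR43 KO replicate 2 (0.123), or with 2 groups fitted alone (0.0779). Actg2 was also lost in both comparisons with 2 groups fitted alone (0.123 and 0.121) or the replicate block (0.0847 and 0.0817), and in GPR43 KO with median centring (0.0582).

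**Figure D5:**
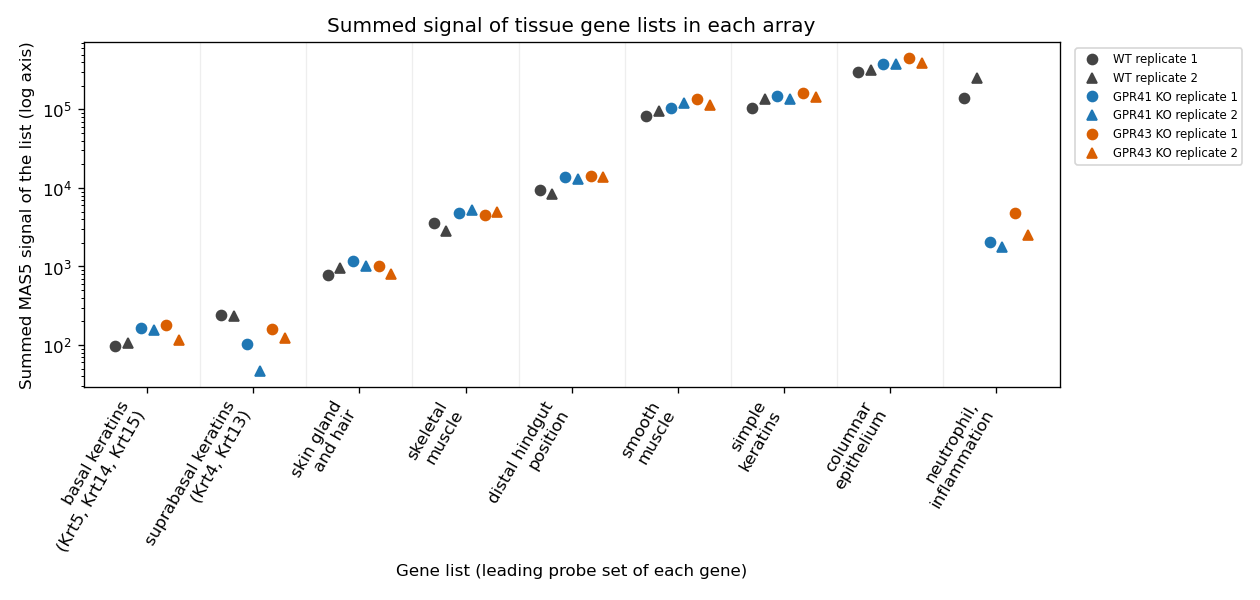
Summed MAS5 signal (log axis) of 9 gene lists in each array, 1 point per array. The neutrophil and acute inflammation list is at 138092 and 254391 in WT and at 1780 to 4815 in the knockout arrays, while the sums of the 5 simple keratins range from 105345 to 160346.

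Inflammation genes were also lower in the knockout arrays, as Dmkn, Asprv1, Sprr2h and Tgm1 were. Any genes lower in both knockout groups share this split of arrays, so a shared fall shows no link. Of all probe sets, 0.748% passed as lower in GPR41 KO and 0.553% in GPR43 KO. Of 16 neutrophil and acute inflammation genes, chosen with earlier results of these arrays known, 15 passed as lower and 1 did not pass for GPR41 KO, and 14 and 2 for GPR43 KO, or 11 and 5 without its replicate 1. Their summed signal was 138092 and 254391 for WT, 2052 and 1780 for GPR41 KO and 4815 and 2489 for GPR43 KO. None of the 16 was under the floor in every array. Of 15 keratinocyte stress and wound genes, 6 fell and 9 did not pass in each comparison, with 4 lower in GPR43 KO without replicate 1. The 6 were S100a8, S100a9, Il1rn, Plaur, Ptgs2 and Ereg, which leukocytes or columnar epithelium can also express. The stress keratins Krt6b and Krt16 and the defensins Defb3 and Defb4 were above the floor in no array. The part of inflammation in the falls of the squamous genes was not tested.

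The genes most like 3 of the members over the 6 arrays were found by Pearson correlation of log2 signals, a description with no test in which the 2 WT and the 4 knockout arrays share their split. For Dmkn they were Cyp2d26, Hmox1, Gda, Hcar2 and Slc16a6 (r from 0.987 to 0.995), and 75 of 1773 genes compared had r over 0.95. Hmox1, heme oxygenase, read 1228 and 2445 for WT and between 106.8 and 348.5 in the knockout arrays, lowest in GPR43 KO replicate 2 as Dmkn was. For Krt13 they were Snhg3, Phldb2, Bdkrb1, Stfa2l1 and Cadm4 (0.967 to 0.989), and for Krt14, which is near the floor, Ces1f, Selenbp1, Sardh, Sptssb and Wfdc1 (0.964 to 0.991).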

How the data were processed

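Total RNA (2 µg) from each colon sample was labelled with biotin and hybridised to 1 array, per the labels. MAS5, per the submitters' processing notes, gave the authors 1 intensity for each probe set (version: not given in the sources used here). From the values, these are linear and already scaled, with a mean of 500.0 in every array once the lowest and highest 2% are left out. Gene symbols came from the platform's annotation (34958 of 45101 probe sets with 1 symbol, 932 with several, 9211 with none) and promoters from RefSeq (GRCm38.p6). The members and lists were chosen with earlier results of these data known.

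Before log2, 18 (the 20th percentile of the deposited signals) was added as a pseudocount, which draws weak signals together. For 45037 probe sets (64 controls left out), group means were fitted with limma 3.58.1 in R 4.3.3 (eBayes with an intensity trend, 3 residual degrees of freedom, 8.85 in total). Unlike a fit per gene with a filter on weak genes, it tests every member and does not favour genes high in 1 group. Tests were two-sided, adjusted by Benjamini-Hochberg over all probe sets at a threshold of 0.05. The number of arrays limits precision: an exact permutation test of 2 against 2 arrays cannot give p below 0.333. Bounds ("at least") set the WT mean of log2 signals against the higher of floor and signal in each knockout array. They leave out the spread between arrays. A fixed rule named the members, up to 4 of the strongest and 4 of the called genes of each list, and for Dmkn, Krt13 and Krt14 the 5 genes with the highest r among those with a log2 range of at least 1 and a highest signal of at least 200. Genes named as under the floor, Krt36, Ly6d, Ckm, Hmox1 and Krtdap were chosen after their values were seen, as was the floor itself. The procedure was run on simulated data with independent noise in each probe set and array. Such data hold no differences between pieces or whole arrays, so they do not check the calls against these. Alternatives covered pseudocount, normalization, filter, variance model, samples in the fit, replicate block and each array left out. The counts of lists, members and genes around Ffar2 without single arrays were added after the data were seen.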

Additional observations from a re-analysis of the deposited data

How the results depend on the processing

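Of 360 values of the members under alternatives, 335 kept direction and side of the threshold, 10 lost the call (all Dmkn), 2 gained it (Sbsn in GPR41 KO) and 13 turned in sign, none of them past the threshold. Beside the arrays left out, Dmkn was lost in GPR41 KO with quantile normalization (adjusted p = 0.0528) and without the intensity trend (0.254), and in GPR43 KO without the trend (0.214) or with 2 groups fitted alone (0.0683). Among all probe sets, 476 passed in GPR41 KO, 8 without the trend and from 51 to 651 with 1 array left out (651 and 209 for WT replicates 1 and 2, 66 and 51 for GPR41 KO replicates 1 and 2). In GPR43 KO 343 passed, 0 in limma without the trend (4260 at an unadjusted p under 0.05), 152 with 2 groups alone and from 58 to 489 with 1 array left out (489 and 96 for WT replicates 1 and 2, 102 and 58 for GPR43 KO replicates 1 and 2). Between the knockouts 0 passed, 2 with median centring, 1 with the 40th percentile filter and from 0 to 3 with 1 array left out. The cause was not tested. Without the trend, none of the list genes Sprr2h, Asprv1, Tgm1, Tgm3, Aqp8, Gsdmc2, Slc37a2 and Actg2 kept a call (adjusted p from 0.0624 to 0.33). The log2 differences that turned, with 1 array left out, ran from -0.19 to 0.32 for Krt5 in GPR41 KO and from -0.85 to 0.25 for Krt5 in GPR43 KO. Between the knockouts they ran from -1.07 to 0.12 for Dmkn, -0.51 to 1.0 for Sbsn, -0.91 to 0.18 for Krt5, -0.24 to 0.076 for Krt14, -0.98 to 0.39 for Krt6a, -0.49 to 0.49 for Sprr1a (0.020 with quantile normalization) and -0.12 to 0.64 for Trp63. With the replicate block 402, 298 and 0 passed (2092 at an unadjusted p under 0.05 in the last), and no member's call changed, while Tgm1 and Actg2 lost theirs in both comparisons and Tgm3 in GPR43 KO. The replicate numbers are not stated to pair arrays, and replicate differences correlated between groups with r of 0.056, -0.157 and -0.0446 over 27022 probe sets. Signals under the floor limit what Krt5, Krt15, Trp63, Krt4, Krt14, Krt13 and Krt6a can show.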
